A study of Mus musculus with 24 samples.

Results

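Callosal projection neurons (CPN) and corticothalamic projection neurons (CThPN) of the mouse cortex were compared at postnatal day 3 (P3), gene by gene, in the bulk RNA-seq values of the study. A gene was included when it reached at least 10 FPKM (sequenced fragments normalised to transcript length and library size) in 1 of the 2 classes at P3, and when its symbol did not begin with Mir, Snor or SNOR or with AC or AL and a digit. Entries named Gm and a number that were listed at 0 throughout a class were also left out. Of the 9767 genes in the expression table, 7861 met this rule, and the measure was the difference between classes in log2(FPKM + 1), Cux2 CPN minus Tle4 CThPN. A difference of at least 1.5 in either direction, which is a 2.83-fold difference on the FPKM + 1 scale, is called past the limit here.

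Both classes came from mice of mixed C57BL/6J background (C57BL/6 in the labels) that carried the Ai14 tdTomato reporter. The CPN carried Cux2-CreERT2, in which a tamoxifen-dependent Cre recombinase was knocked into Cux2, and the CThPN carried Tle4-2A-CreERT2, in which the same recombinase is made together with Tle4. Pregnant dams received 1 mg of 4-hydroxytamoxifen per 10 g of body weight late in gestation, and both classes share the reporter and the drug. At P3 the somatosensory cortex and part of the motor cortex were digested with papain, and tdTomato-positive neurons pooled from several pups of both sexes were purified by fluorescence-activated cell sorting. Each class was sequenced as 2 libraries, 4 of the 24 in the series, and the table holds 1 value per gene and class over both libraries. The same classes were also sequenced at E18.5, before birth, and at P1, P7, P21 and P48, and these ages are used only for the course of the P3 differences. No replicate error exists for any value below, so no difference was tested and all differences describe these libraries. The Cux2-CreERT2 allele is known to label some cortical interneurons, so the labels of both classes were checked against marker genes. The paper also sequenced labelled single cells of both classes. It found few cells positive for the interneuron genes Gad1 or Gad2 and judged their effect on its results minimal. In bulk samples, fewer cells of a type and less RNA per cell cannot be told apart.

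CPN send their axon through the corpus callosum to the other hemisphere, and most of them sit in the upper cortical layers. CThPN sit in layer 6 and send their axon to the thalamus. In the first postnatal days the late-born upper-layer neurons complete their migration, axons of both classes extend into their target fields, and the first synapses form. Transcription factors that repress each other's programs, among them Fezf2, Tbr1 and Sox5 on the corticofugal side, are known to separate these fates.

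Levels were alike for most genes. Of the 7861 genes, 7413 (94.3%) stayed within the limit, 448 (5.7%) were past it, 247 (3.14%) with the higher value in Cux2 CPN, and 201 (2.56%) with the higher value in Tle4 CThPN. The median difference over all genes was -0.02, and Pearson's r between the log2(FPKM + 1) values of the classes was 0.86 across genes, which share the same libraries. Among the genes higher in Cux2 CPN, 95 differed by less than 2 on the log2 scale and 15 by at least 4. Among those higher in Tle4 CThPN, 83 differed by less than 2 and 23 by at least 4. The class with the lower value was under 1 FPKM for 28 of the 247 genes and for 35 of the 201. Just past the limit on the callosal side was Rgl1, with 20.8 FPKM in Cux2 CPN against 6.70 FPKM in Tle4 CThPN, and just within it was Tlk1, with 35.6 and 12.0 FPKM. On the corticothalamic side Csrp2 was just past it, with 62.1 FPKM in Cux2 CPN against 177.8 FPKM in Tle4 CThPN, and 6230427J02Rik was just within it, with 5.31 and 16.8 FPKM.

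**Figure D1:**
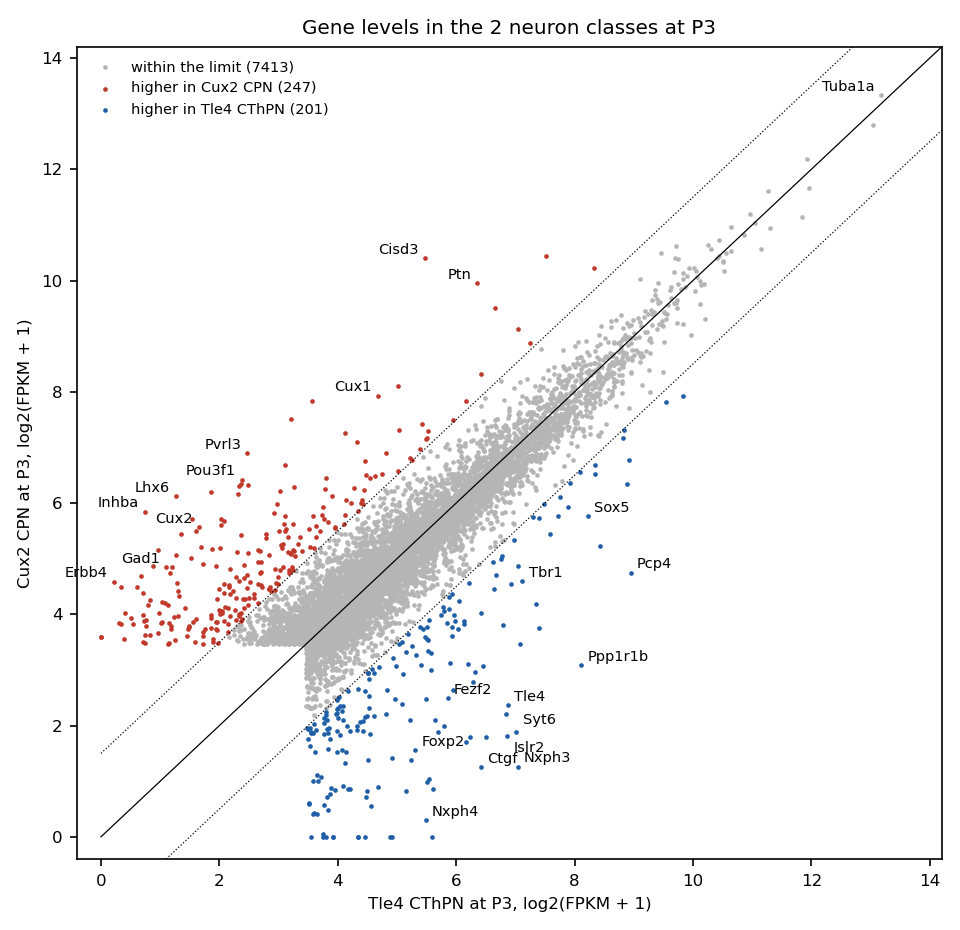
Levels of the 7861 genes at P3, with Tle4 CThPN on the x axis and Cux2 CPN on the y axis, both in log2(FPKM + 1). The solid line marks equal levels and the dotted lines the limit of 1.5. Gm12563 lies outside the axes, no gene reaches 10 FPKM in the empty lower left corner, and most points lie between the dotted lines.

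The genes that carry the Cre alleles separated the classes. Cux2, a homeodomain factor of upper-layer neurons, was at 46.6 FPKM in Cux2 CPN and at 2.14 in Tle4 CThPN, a difference of 3.92. Tle4, a corepressor of layer 6 neurons, was at 4.14 FPKM in Cux2 CPN and at 116 in Tle4 CThPN, a difference of -4.51. These values check the labels, and both alleles were chosen for them.

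Callosal identity genes were mostly higher in Cux2 CPN. Of the 26 genes on the upper-layer and callosal list that were included, 19 were past the limit in that direction and 1 in the other, with a median difference of 2.76 against -0.02 over all genes. Inhba, which encodes a subunit of activin, stood at 56.6 FPKM in Cux2 CPN and 0.68 in Tle4 CThPN, the largest difference of the list (5.10). The cell adhesion gene Pvrl3, which encodes nectin 3, was at 118 and 4.56 FPKM. The POU factor Pou3f1 was at 84.8 and 4.2 FPKM, and the LIM-homeodomain factor Lhx2 was at 78.0 and 4.04 FPKM. All 4 differed by more than 3.9 on the log2 scale. The growth factor Ptn was the most abundant gene of the list, at 994 FPKM in Cux2 CPN and 81.0 in Tle4 CThPN. Cux1, a homeodomain factor related to Cux2, was at 243 and 24.5 FPKM. Dkk3, a secreted protein of the Dickkopf family, was the 1 listed gene past the limit the other way, with 20.9 FPKM in Cux2 CPN and 98.8 in Tle4 CThPN.

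Corticothalamic identity genes showed the mirror image. Of 28 included genes, 20 were past the limit toward Tle4 CThPN and 1 toward Cux2 CPN, with a median difference of -2.49. Nxph3, a secreted ligand of neurexins, was at 1.40 FPKM in Cux2 CPN and 130 in Tle4 CThPN, the largest corticothalamic difference of all genes (-5.77). The synaptotagmin gene Syt6 was at 2.68 and 129 FPKM. Ppp1r1b, which encodes the phosphatase inhibitor DARPP-32, was at 7.49 and 275 FPKM. Crym, which encodes a binding protein of thyroid hormone, was at 2.47 and 90.0 FPKM. These genes were low in Cux2 CPN, but not all fate factors were: Tbr1 stood at 23.2 FPKM in Cux2 CPN against 138 FPKM in Tle4 CThPN, and Sox5 at 53.2 and 297 FPKM. Fezf2, which specifies corticofugal neurons, was at 4.66 and 57.0 FPKM, and the forkhead factor Foxp2 was at 1.95 and 38.7 FPKM. The forkhead factor Foxp1 was the 1 listed gene past the limit toward Cux2 CPN, with 156 FPKM against 45.0 FPKM. Ntsr1, the neurotensin receptor gene used to mark adult CThPN, stayed within the limit at 23.1 and 43.1 FPKM.

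The start regions of 4 of these genes are shown, the genes of both Cre alleles and the gene of each identity list with the largest difference for which a RefSeq promoter was at hand. Each run spans 250 bases before to 50 bases after the most upstream RefSeq start, reads 5' to 3' on the strand of the gene, and was found once in the genome build NCBIM37. The runs lie at chr5:122499811-122500110 for Cux2 on the minus strand, chr19:14672624-14672923 for Tle4 on the minus strand, chr13:16103434-16103733 for Inhba on the plus strand and chr3:103378918-103379217 for Syt6 on the plus strand. Capitals mark a match on either strand to one of 5 motifs, TAATTA of homeodomain factors, AGGTGT of T-box factors, AACAAT of SOX factors, the POU octamer ATGCAAAT and the TATA box TATAAA.
Cux2: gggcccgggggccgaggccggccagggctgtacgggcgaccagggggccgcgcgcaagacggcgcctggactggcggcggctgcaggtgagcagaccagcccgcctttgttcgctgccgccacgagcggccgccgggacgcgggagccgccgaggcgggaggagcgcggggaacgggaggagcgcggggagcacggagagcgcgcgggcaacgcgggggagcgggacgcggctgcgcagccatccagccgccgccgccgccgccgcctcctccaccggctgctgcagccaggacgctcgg
Tle4: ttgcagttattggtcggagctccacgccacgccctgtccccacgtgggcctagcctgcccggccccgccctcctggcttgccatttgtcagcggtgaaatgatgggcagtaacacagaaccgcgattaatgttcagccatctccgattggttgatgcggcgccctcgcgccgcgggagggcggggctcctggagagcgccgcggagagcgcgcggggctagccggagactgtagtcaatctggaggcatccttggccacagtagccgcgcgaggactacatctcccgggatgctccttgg
Inhba: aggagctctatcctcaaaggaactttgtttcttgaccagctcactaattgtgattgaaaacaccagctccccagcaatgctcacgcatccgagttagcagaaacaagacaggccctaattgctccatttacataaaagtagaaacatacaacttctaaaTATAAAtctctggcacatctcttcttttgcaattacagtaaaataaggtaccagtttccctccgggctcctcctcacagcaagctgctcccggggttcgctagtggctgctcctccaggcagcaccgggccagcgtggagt
Syt6: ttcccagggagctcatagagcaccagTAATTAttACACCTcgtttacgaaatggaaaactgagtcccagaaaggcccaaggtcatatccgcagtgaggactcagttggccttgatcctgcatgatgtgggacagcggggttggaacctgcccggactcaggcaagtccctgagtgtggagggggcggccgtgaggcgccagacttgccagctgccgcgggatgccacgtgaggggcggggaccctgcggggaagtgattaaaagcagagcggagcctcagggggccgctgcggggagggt
Inhba held a TATAAA, and Syt6 held a TAATTA followed by ACACCT, the reverse complement of AGGTGT. These are matches of letters at any position in the run. Whether any of them acts as a TATA box or binds a factor was not tested. Among 32851 RefSeq promoter windows of the same length, TATAAA was present in 13.6%, AGGTGT in 13.7%, AACAAT in 10.7%, TAATTA in 5.29% and ATGCAAAT in 1.74%, on either strand. The windows of Cux2 and Tle4 held none of these letters. A promoter was found for 6255 of the 7861 genes (79.6%), for 180 of the 247 genes higher in Cux2 CPN (72.9%) and for 120 of the 201 higher in Tle4 CThPN (59.7%), so a comparison of motifs between these sets is void and no share is given for them.

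Interneuron genes were higher in the callosal population. Of the 24 genes on the interneuron list, 17 were in the table and 15 were included, of which 12 were past the limit toward Cux2 CPN and 0 toward Tle4 CThPN, with a median difference of 3.48. Lhx6, a LIM-homeodomain factor of interneurons born in the medial ganglionic eminence, was at 68.9 FPKM in Cux2 CPN and 1.40 in Tle4 CThPN. Gad1 and Gad2 encode the enzymes that make GABA. Gad1 was at 28 and 1.15 FPKM, and Gad2 at 13.1 and 0.26 FPKM. The homeodomain gene Dlx1 was at 51.4 and 1.89 FPKM, and the neuregulin receptor gene Erbb4 was at 23.1 and 0.17 FPKM. Sst, the neuropeptide somatostatin, was at 77.3 and 8.61 FPKM. The neuropeptide gene Npy differed in sign, with 333 FPKM in Cux2 CPN against 614 FPKM in Tle4 CThPN, and stayed within the limit. The 17 genes summed to 938 FPKM in Cux2 CPN and to 702 FPKM in Tle4 CThPN, of which Npy was the largest part in Tle4 CThPN, and none of them was at 0 in either class. Without the listed interneuron genes, 235 genes were higher in Cux2 CPN. These markers were higher in the same class as the callosal genes, and their part in the callosal results was not tested here. The paper counted cells positive for Gad1 or Gad2 over both classes together and judged their effect on its own results minimal.

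Subplate and layer 6b genes stood on the corticothalamic side. Subplate neurons are among the first cortical neurons to be born and lie directly under layer 6. Of the 14 genes on this list, 9 were included, 7 were past the limit toward Tle4 CThPN and 1 toward Cux2 CPN, with a median difference of -3.85. Nxph4, a neurexophilin, was at 0.23 FPKM in Cux2 CPN and 43.8 in Tle4 CThPN. The secreted matrix protein gene Ctgf was at 1.38 and 84.3 FPKM, and the complexin gene Cplx3 at 0.99 and 44.6 FPKM. Nr4a2, the fourth defining marker, was nearly level at 9.15 and 11.3 FPKM. The gene that went toward Cux2 CPN was Gabra5, a GABA-A receptor subunit, at 74.8 and 20.7 FPKM. The 9 genes summed to 97.5 FPKM in Cux2 CPN, most of it Gabra5, and to 399 FPKM in Tle4 CThPN, with none at 0. Leaving the list out left 194 genes higher in Tle4 CThPN, and the part of these markers in the other corticothalamic results was not tested.

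**Figure D2:**
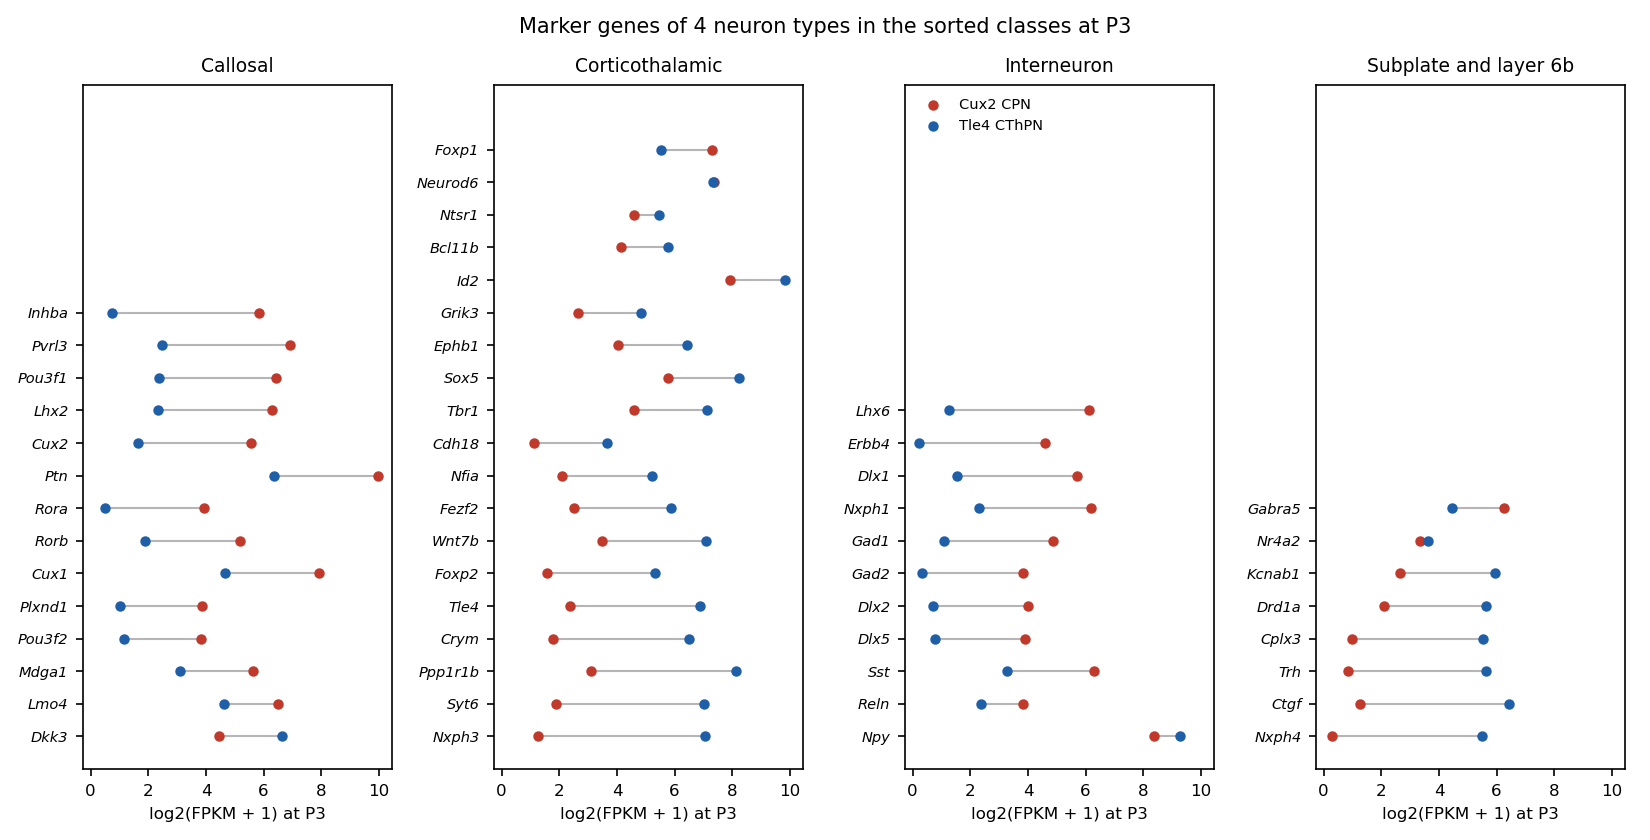
Genes of 4 marker lists that are named in the text, at P3, in log2(FPKM + 1) on the x axis, with 1 row per gene, red points for Cux2 CPN and blue points for Tle4 CThPN. Red lies to the right for most callosal and interneuron genes, up to 5.10 apart for Inhba, and blue for most corticothalamic and subplate genes, up to -5.77 for Nxph3.

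Pan-glutamatergic genes went both ways. Neurod6, a bHLH factor of cortical projection neurons, was at 163 FPKM in Cux2 CPN against 161 FPKM in Tle4 CThPN, and the median difference over 10 listed genes was -0.11, or -0.81 with a minimum of 30 FPKM. The vesicular glutamate transporters were unequal in opposite directions. Slc17a6, or VGLUT2, was at 28.4 FPKM in Cux2 CPN and 0.84 in Tle4 CThPN, while Slc17a7, or VGLUT1, was at 29.8 and 97.0 FPKM. With Tbr1, 2 of the 10 genes were past the limit toward Tle4 CThPN and 1 toward Cux2 CPN. The layer 5 list had 2 of 8 genes past the limit toward Cux2 CPN and 3 toward Tle4 CThPN, which became 0 and 3 with a pseudocount of 5. Of these, Pcp4, a calmodulin-binding protein, was at 25.9 and 494 FPKM, Etv1, a transcription factor, at 4.21 and 33.1 FPKM, and the transcriptional repressor Bcl6 at 12.3 and 1.28 FPKM.

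Few genes of other cell types reached 10 FPKM in either class. No microglial or blood gene did, out of 5 and 4 in the table. Microglial genes summed to 1.26 FPKM in Cux2 CPN and 14.7 in Tle4 CThPN. Of the astrocyte list 2 of 9 genes were included, with 1 past the limit toward Tle4 CThPN, and the list summed to 73.8 and 127 FPKM. Of the oligodendrocyte lineage list 2 of 6 were included, the sums were 26.3 and 27.3 FPKM, and Olig1, a bHLH factor of that lineage, was at 2.36 and 10.3 FPKM. The endothelial list had 1 included gene, Itm2a, at 24.6 and 26.7 FPKM, and the Cajal-Retzius list had Reln, at 13 and 4.15 FPKM, both within the limit. The progenitor list had Fabp7, a fatty acid binding protein of radial glia, which lay just within the limit at 39.2 and 111 FPKM, and the cycling list had Pcna, at 67.7 and 90.1 FPKM. Of 7 genes that dissociation induces, 1 was past the limit, Junb, at 6.73 and 21.9 FPKM, and their median was -0.57. With a pseudocount of 5, Olig1 and Junb were within the limit. The part of these genes in the class differences was not tested.

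Each list of transcription factors had genes past the limit in both directions, in unequal counts. Of 30 homeodomain, LIM and POU genes, 12 were past the limit toward Cux2 CPN and 3 toward Tle4 CThPN, where 3.14% and 2.56% of all genes were. The 12 include the interneuron genes Lhx6, Dlx1, Dlx2 and Dlx5 beside Cux1, Cux2, Lhx2, Lmo4, Pou3f1 and Pou3f2. The 3 were Otx1, a homeodomain factor of deep layers at 1.67 FPKM in Cux2 CPN and 29.2 in Tle4 CThPN, Meis2 at 30.9 and 107 FPKM, and the LIM cofactor Ldb2 at 25.1 and 101 FPKM. SOX, forkhead and T-box genes had 1 of 14 toward Cux2 CPN and 3 toward Tle4 CThPN, namely Foxp1 against Sox5, Foxp2 and Tbr1. Zinc finger and nuclear receptor genes had 2 of 36 toward Cux2 CPN and 6 toward Tle4 CThPN. The 2 were the retinoid-related orphan receptors Rora, at 14.3 and 0.42 FPKM, and Rorb, at 35.1 and 2.68 FPKM. Among the 6 were Nfia at 3.30 and 36.2 FPKM and Bcl11b, or CTIP2, at 16.5 and 53.8 FPKM. Within the TLE corepressors the members were unequal, since Tle1 was at 35.9 FPKM in Cux2 CPN against 2.22 FPKM in Tle4 CThPN and Tle3 at 31.5 and 1.86 FPKM, the reverse of Tle4. The list of bHLH, ID and TLE genes had 8 of 22 past the limit toward Cux2 CPN and 3 toward Tle4 CThPN (5 and 2 with a pseudocount of 5). Id2, an inhibitor of bHLH factors, was abundant in both, at 242 and 910 FPKM.

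Axon guidance genes were past the limit in both directions, beside 5.7% of all genes. Of 12 Eph receptor and ephrin genes, 3 were past it toward Cux2 CPN and 1 toward Tle4 CThPN. The receptor gene Epha4 was at 53.6 FPKM in Cux2 CPN and 7.62 in Tle4 CThPN, its possible ligand gene Efnb2 was at 51.6 and 12.6 FPKM, and the receptor gene Ephb1 was at 15.3 and 84.3 FPKM. Among 16 semaphorin, plexin and neuropilin genes, 2 were past the limit, both toward Cux2 CPN, and 0 of 8 with a minimum of 30 FPKM. The 2 were the secreted ligand gene Sema3a, at 22.5 and 1.45 FPKM, and the plexin receptor gene Plxnd1, at 13.6 and 1.04 FPKM. Of 11 slit, robo and netrin genes, 2 were toward Cux2 CPN and 1 toward Tle4 CThPN. Neo1, or neogenin, was at 76.2 FPKM in Cux2 CPN with a difference of 1.99, the netrin G gene Ntng2 at 13.6 and 0.66 FPKM, and the ligand gene Slit1 at 4.01 and 22.0 FPKM. Of 31 growth cone and cytoskeletal genes, 1 was past the limit, close to the share of all genes, and the median was 0.14. That gene was Dcx, a microtubule protein of young migrating neurons, at 228 FPKM in Cux2 CPN and 71.0 in Tle4 CThPN.

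Adhesion and synapse organizing genes had no common direction. Of 19 cadherins and protocadherins, 3 were past the limit toward Cux2 CPN and 2 toward Tle4 CThPN, and with a pseudocount of 5 these were 3 and 0. Pcdh8 was at 33.9 FPKM in Cux2 CPN and 3.91 in Tle4 CThPN, whereas Cdh18 was at 1.16 and 11.5 FPKM. Of 46 immunoglobulin and leucine-rich repeat genes, 7 were toward Cux2 CPN and 2 toward Tle4 CThPN (4 and 2 with a pseudocount of 5). The 2 differed more than 6 of the 7, with Islr2 at 2.52 and 115 FPKM and Igsf21 at 12.5 and 168 FPKM. In the neurexin list 4 of 22 genes were past the limit in each direction, with a median of 0.56. The neurexin gene Nrxn3 was at 34.8 and 5.28 FPKM. The neurexophilins, ligands that bind neurexins, were divided, with Nxph1 at 70.9 and 3.98 FPKM and Nxph2 at 12.3 and 2.86 FPKM, against Nxph3 and Nxph4 on the corticothalamic side. Nxph1 is also on the interneuron list, Nxph3 on the corticothalamic list and Nxph4 on the subplate list. Nptx1, a neuronal pentraxin, was at 0.77 FPKM in Cux2 CPN and 34.5 in Tle4 CThPN.

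Neurotransmitter receptor lists differed in direction. Of 12 GABA-A and glycine receptor genes, 5 were past the limit toward Cux2 CPN and 0 toward Tle4 CThPN, with a median difference of 1.01, which was 0.42 with a minimum of 30 FPKM, where 1 of 7 genes was past the limit. The subunit gene Gabra2 was at 19.8 FPKM in Cux2 CPN and 0.63 in Tle4 CThPN, Gabra4 at 19.0 and 1.49 FPKM, and Gabrb1 at 21.5 and 3.49 FPKM. Of 11 ionotropic glutamate receptor genes, 3 were toward Cux2 CPN and 1 toward Tle4 CThPN. The AMPA receptor gene Gria1 was at 62.5 and 6.82 FPKM, and the kainate receptor genes went in opposite directions, with Grik1 at 11.7 and 0.96 FPKM and Grik3 at 5.22 and 27.5 FPKM. Receptors for monoamines and peptides leaned toward Tle4 CThPN, with 5 of 16 past the limit there and 1 toward Cux2 CPN, and a median of -0.70. The dopamine receptor gene Drd1a was at 3.30 FPKM in Cux2 CPN and 48.9 in Tle4 CThPN, the adrenergic receptor genes Adra1b at 0.89 and 16 FPKM and Adrb1 at 1.88 and 15 FPKM. The somatostatin receptors were split, with Sstr1 at 21 and 3.01 FPKM and Sstr2 at 8.97 and 34.8 FPKM. Of 7 metabotropic glutamate and GABA-B receptor genes, 2 were toward Cux2 CPN (Grm2 and Grm5) and 1 toward Tle4 CThPN (Grm8). With a pseudocount of 5, the counts toward Cux2 CPN and Tle4 CThPN were 4 and 0 for GABA-A and glycine, 1 and 1 for ionotropic glutamate, 1 and 4 for monoamine and peptide, and 1 and 0 for metabotropic and GABA-B receptors. Grik1, Grm2 and Grm8 were then within the limit.

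Channels and the release machinery had no common direction. Of 34 potassium channel genes, 6 were past the limit toward Cux2 CPN and 5 toward Tle4 CThPN, or 2 and 3 with a pseudocount of 5. Kcnq5, an M-type channel, was at 18.3 FPKM in Cux2 CPN against 2.90 FPKM in Tle4 CThPN, and the auxiliary subunit gene Kcnab1 was at 5.25 and 61.0 FPKM. Of 13 sodium and calcium channel genes 1 was past it, the auxiliary subunit gene Cacna2d1, at 24.6 and 3.88 FPKM. Among 39 genes of synaptic vesicle release, 4 were past the limit toward Cux2 CPN and 5 toward Tle4 CThPN. With a minimum of 30 FPKM these were 1 and 4 of 26. The vesicle protein gene Synpr was at 25.6 and 1.26 FPKM, Syt4 at 136 and 19.0 FPKM, and Sv2b at 8.84 and 46.5 FPKM. Of 37 calcium binding and second messenger genes, 1 was toward Cux2 CPN (0 with a pseudocount of 5) and 3 toward Tle4 CThPN, among them the regulators of G protein signalling Rgs8, at 0.81 and 17.0 FPKM, and Rgs10, at 12.7 and 60.2 FPKM.

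Secreted signals and their receptors differed for some members. Of 17 neurotrophic, IGF and FGF genes, 5 were past the limit toward Cux2 CPN and 1 toward Tle4 CThPN. The lists overlap, and the 5 include Erbb4, also on the interneuron list, and Ptn, also on the callosal list. The binding proteins of insulin-like growth factors went in opposite directions, with Igfbp5 at 42.0 FPKM in Cux2 CPN against 4.15 FPKM in Tle4 CThPN and Igfbp3 at 7.78 and 58.5 FPKM. Fgf9 was at 10.3 and 0.63 FPKM, and was within the limit with a pseudocount of 5. Of 18 WNT, BMP and activin genes, 3 were toward Cux2 CPN, among them Inhba of the callosal list, and 2 toward Tle4 CThPN. The ligand gene Wnt7b was at 10.0 and 135 FPKM, and the follistatin-like gene Fstl4 at 21.5 and 0.52 FPKM. Of 7 retinoid and thyroid hormone genes 1 was past the limit, Crym, and the thyroid hormone receptor gene Thra was level at 380 and 355 FPKM.

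Housekeeping families gave a measure of small shifts. None of 78 cytosolic ribosomal protein genes was past the limit, and their median difference was 0.31. Of 78 respiratory chain genes 1 was past it, the cytochrome oxidase subunit gene Cox6a2, at 13.2 FPKM in Cux2 CPN against 0.45 FPKM in Tle4 CThPN, and the median was -0.19. Over these and all other lists, members were selected with results of these data known, so a list's share against the 3.14% and 2.56% of all genes describes the list and is not a test of it. The most abundant gene annotated as protein coding in both classes was Tuba1a, a tubulin of growing neurons, at 10367 FPKM in Cux2 CPN and 9224 in Tle4 CThPN. Stmn1, a microtubule regulator, was at 4662 and 3917 FPKM, and Calm2, 1 of the calmodulin genes, at 2275 and 3671 FPKM.

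**Figure D3:**
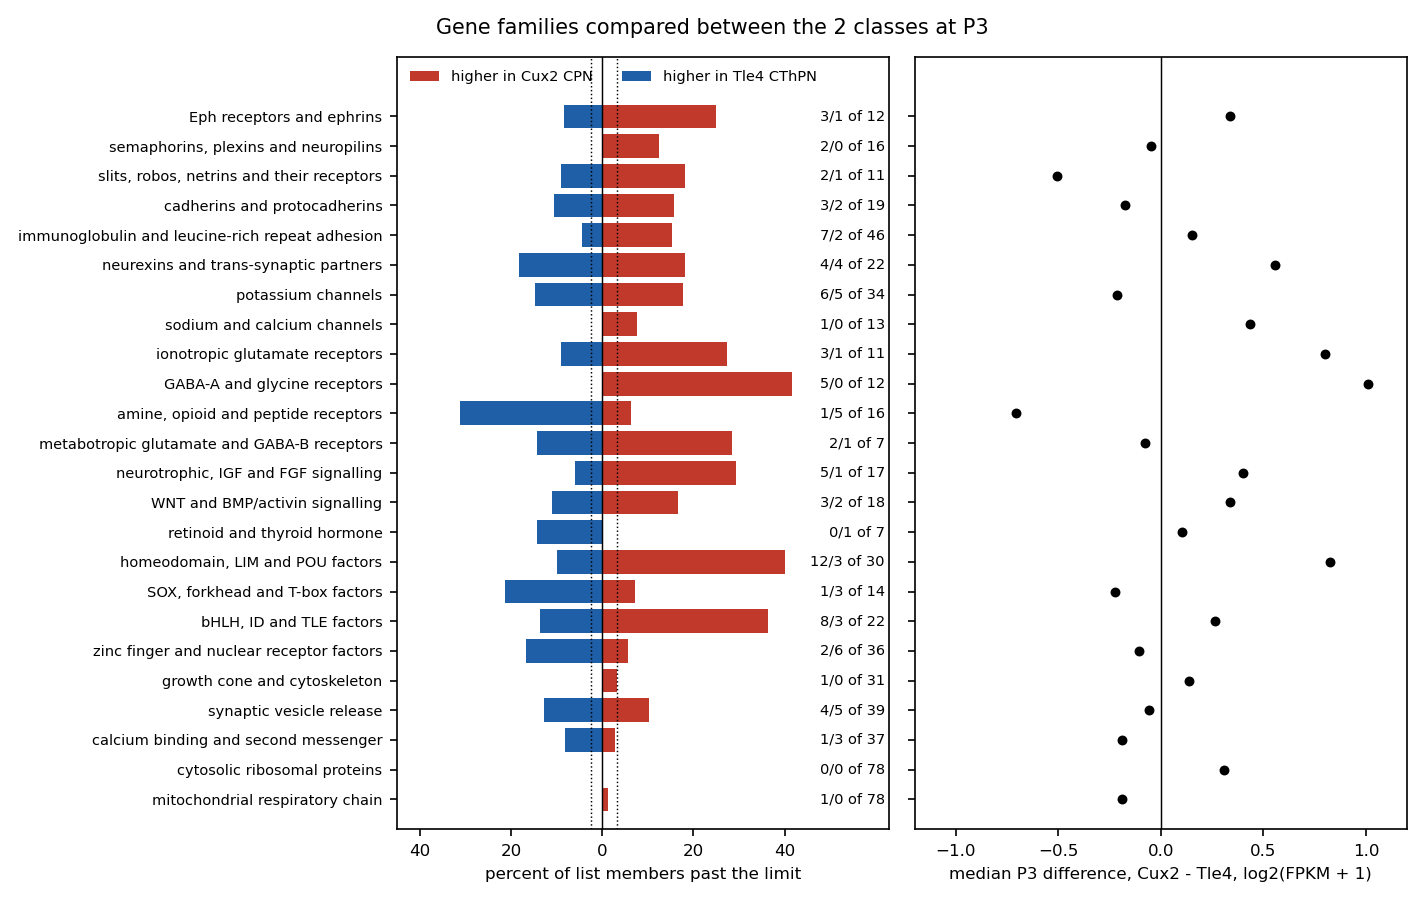
Gene families at P3. The left panel gives the percent of included genes past the limit, to the right for Cux2 CPN and to the left for Tle4 CThPN, with the counts in each direction and dotted lines at 3.14% and 2.56%, the shares of all genes. The right panel gives the median difference in log2(FPKM + 1), which ran from -0.70 for amine, opioid and peptide receptors to 1.01 for GABA-A and glycine receptors (0.42 with a minimum of 30 FPKM).

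The largest differences among all genes were named by size, 12 in each direction. On the corticothalamic side the neuropeptide precursor gene Trh (0.82 and 48 FPKM) is on the subplate and layer 6b list, as are Nxph4, Ctgf and Cplx3. Beside the listed identity, subplate and interneuron genes, the corticothalamic side held Islr2, a membrane protein of axon growth, Rprml (3.62 and 113 FPKM) and the AMPA receptor auxiliary subunit gene Gsg1l (1.05 and 45.3 FPKM). The callosal side held the secreted protein genes Fam19a2 (72.5 and 2.63 FPKM) and Ostn (21.6 and 0.26 FPKM). It also held 4 transcripts whose values stand apart. Gm12563, a pseudogene with 102 nt of annotated exons on chromosome 3, was at 574207 FPKM in Cux2 CPN and 61.0 in Tle4 CThPN, more than all other included genes together. The sum over the other included genes was 534175 FPKM in Cux2 CPN and 542861 in Tle4 CThPN. All entries, those left out by the rule included, summed to 3455135 FPKM in Cux2 CPN and 563336 in Tle4 CThPN. Among those left out, Mir5105 was at 1270340 FPKM and AL807811.1 at 336544 FPKM in Cux2 CPN, both at 0 in Tle4 CThPN. The largest left-out value in Tle4 CThPN was that of AL935177.1, at 9440 FPKM and at 0 in Cux2 CPN. The snRNA U4atac, with 125 nt, was at 180 and 8.28 FPKM, the mitochondrial gene mt-Atp8, with 204 nt, at 228 and 10.8 FPKM, and Cisd3, an iron-sulfur protein gene with 833 nt, at 1350 and 43.5 FPKM. Without the 16 genes of at most 300 nt of exons, 242 and 196 genes were past the limit.

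Genes higher in Cux2 CPN spanned longer stretches of the genome. The span from the first to the last annotated base, introns included, had a median of 79.1 kb for the genes higher in Cux2 CPN, 20.1 kb for those higher in Tle4 CThPN and 22.4 kb for all genes. A span was known for 96.4%, 95.5% and 98.2% of them. Spans over 100 kb made up 46.2%, 20.3% and 13.7%, respectively. The exons alone had medians of 4736 nt, 2880.5 nt and 3616.5 nt. Long genes on the callosal side included Gpc5, a heparan sulfate proteoglycan gene of 1432 kb, and Erbb4, of 1076 kb, and on the corticothalamic side Sox5, of 954 kb, Cdh18, of 925 kb, and Grm8, of 860.1 kb.

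The shift was not limited to the genes past the limit. Over all genes with a span, the median P3 difference was -0.18 for 1025 genes of at most 5 kb, -0.15 from 5 to 10 kb, -0.08 from 10 to 25 kb, 0.03 from 25 to 50 kb, 0.16 from 50 to 100 kb, 0.25 from 100 to 250 kb and 0.44 for 352 genes over 250 kb. Each longer bin thus had a higher median. Of the genes over 250 kb, 16.8% were past the limit toward Cux2 CPN and 4.83% toward Tle4 CThPN. P7 gave the same order, from -0.24 for the shortest to 0.48 for the longest genes. At P1 the medians ran only from 0.01 to 0.10, and at E18.5 the longest genes were at -0.06 and the other bins between 0.09 and 0.13. At P21 and P48 every bin lay between -0.02 and 0.10. Among the genes included at P3, those past the limit toward Cux2 CPN at a given age had the longer median span at all 6 ages. The medians were 53.5 against 43.0 kb at E18.5, 51.0 against 36.2 kb at P1 and 87.4 against 23.0 kb at P7. They were 43.8 against 26.6 kb at P21 and 46.1 against 27.1 kb at P48. Genes that share a library share its preparation, and these medians have no test.

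**Figure D4:**
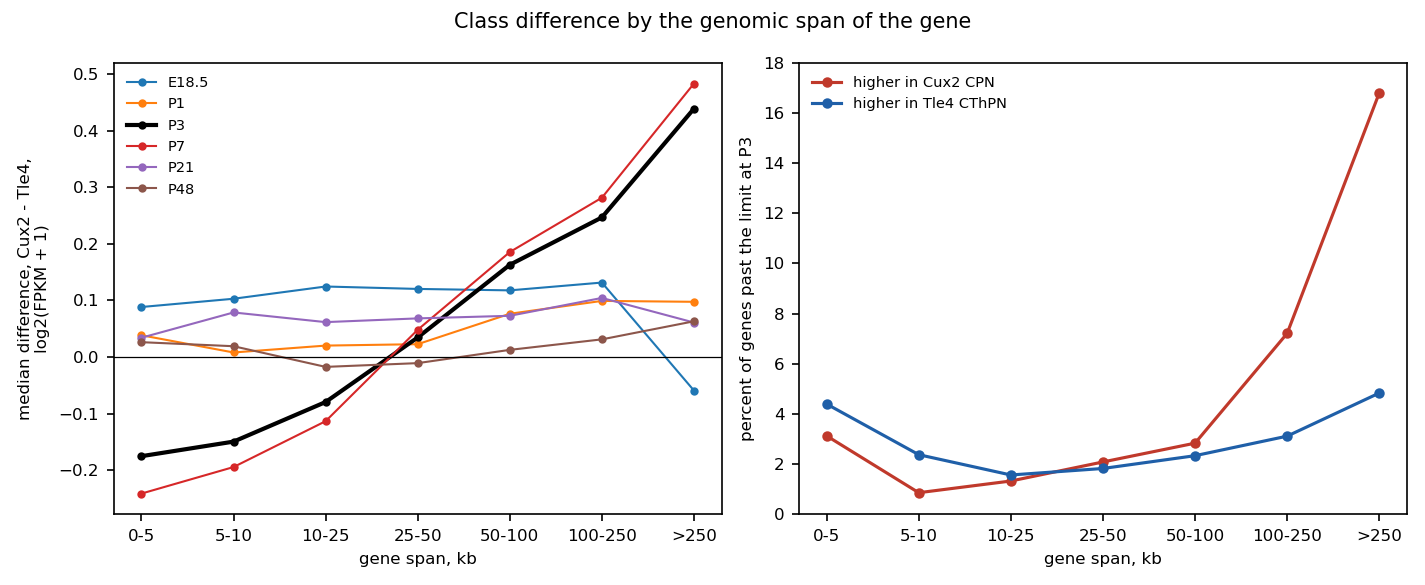
Class difference by gene span in kb. The left panel gives the median difference in log2(FPKM + 1) at each of 6 ages, and the lines of P3 and P7 climb with span, from -0.18 to 0.44 at P3. The right panel gives the percent of genes past the limit at P3, which reached 16.8% toward Cux2 CPN in the longest bin.

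The differences at P3 were set beside those of the neighbouring ages, which are separate animals and libraries. Of the 247 genes higher in Cux2 CPN at P3, 177 (71.7%) were also past the limit in that direction at P1, where 2.6% of all genes were, and 176 (71.3%) at P7, where 2.82% were. These are 86.8% of the 204 genes past it at P1 and 79.3% of the 222 at P7, counted among the 7861 genes included at P3. Genes that reached 10 FPKM only at another age are not in the counts of this paragraph. The same rule applied at P7 gave 263 genes toward Cux2 CPN and 174 toward Tle4 CThPN. Of the 201 genes higher in Tle4 CThPN, 158 (78.6%) were past the limit at P1, where 2.65% of all genes were, and 131 (65.2%) at P7, where 2.14% were. They make up 76.0% of the 208 genes at P1 and 78.0% of the 168 at P7. The sign was the same as at P3 for 240 and 238 of the 247 genes and for 195 and 189 of the 201 genes at P1 and P7. Both neighbouring ages were past the limit for 142 callosal genes (57.5%) and 108 corticothalamic genes (53.7%), and neither for 36 and 20. At all 6 ages 25 and 46 genes were past it.

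Some differences were still widening at P3. Those of 75 callosal (30.4%) and 43 corticothalamic genes (21.4%) grew from P1 to P3 and again to P7. The difference was larger at P3 than at P7 for 156 (63.2%) and 141 (70.1%), but the genes were chosen at P3, and of genes chosen by the same rule at P7, 70.3% and 65.5% had the larger difference at P7. Rorb, the nuclear receptor of layer 4 neurons, went from 9.99 FPKM in Cux2 CPN against 12.6 FPKM in Tle4 CThPN at E18.5 to 35.1 and 2.68 FPKM at P3. Its difference grew from -0.31 at E18.5 through 1.88 (P1) and 3.29 (P3) to 4.19 at P7. The secreted peptide gene Ostn was nearly silent at E18.5, at 0.17 FPKM in Cux2 CPN and listed at 0 in Tle4 CThPN, and reached 21.6 and 0.26 FPKM at P3, then returned to 0.46 and 0 FPKM at P21. Both genes belong to the 52 callosal genes (21.1%) whose difference toward Cux2 CPN was under 0.5 at E18.5, genes with the opposite sign included. Likewise, 22 corticothalamic genes (10.9%) were counted toward Tle4 CThPN. Entries of small nuclear, ribosomal and other small RNA are in these counts. They include U1, U11 and U4atac among the 52, and snoU109, Y_RNA, n-R5s164, n-R5s201 and SCARNA17 among the 22. Cplx3 had differences of -1.45 at E18.5, -3.0 at P1, -4.52 at P3 and -5.98 at P7. Trp53i11 was at 53.2 FPKM in Cux2 CPN and 210 in Tle4 CThPN at P3 and at 3.71 and 164 FPKM at P7, having been higher in Cux2 CPN at E18.5 (174 and 127 FPKM). Rorb and Trp53i11 were chosen for the age course after their values were seen.

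Other differences were gone or had turned at the later ages. At P1, P3 and P7, 19 callosal and 12 corticothalamic genes were past the limit whose difference in that direction was under 0.5 at both P21 and P48, genes with the opposite sign included. Gria1 was at 62.5 FPKM in Cux2 CPN and 6.82 in Tle4 CThPN at P3 and at 53.9 and 56.6 FPKM at P21, so it was the corticothalamic value that had moved. Afap1, an actin filament binding protein, was at 50.3 and 3.21 FPKM at P3 and at 0.90 and 1.07 FPKM at P21, so the callosal value had moved. Rasgrp1, an activator of Ras, was at 0.78 FPKM in Cux2 CPN and 21.5 in Tle4 CThPN at P3 and at 217 and 231 FPKM at P21, with both classes far above their P3 level. These 3 were also chosen after their values were seen. Slc17a7 was at 194 and 275 FPKM at P7, after 29.8 and 97.0 FPKM at P3, and its difference went from -1.67 to -0.50.

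The naming rule also took the genes whose P3 difference most exceeded those at P1 and P7. Spp1, which encodes the secreted phosphoprotein osteopontin, was at 11.1 FPKM in Tle4 CThPN at P3 and under 0.5 FPKM in all other groups. Its differences were -0.11 at P1, -3.17 at P3 and 0.37 at P7. At P3 the listed microglial genes summed to 14.7 FPKM in Tle4 CThPN and 1.26 in Cux2 CPN, and a link to Spp1 was not tested. Cisd3 was at 1350 FPKM in Cux2 CPN at P3 and at 1428 FPKM at P48, against 14.3 to 44.3 FPKM at the other 4 ages, while Tle4 CThPN lay between 19.9 and 69.5 FPKM throughout. U4atac was at 0 in Cux2 CPN at every age but P3. The other genes it took were entries of small nuclear, small nucleolar and ribosomal RNA, U1 and U11 on the callosal side and U5, snoU109, n-R5s164 and n-R5s201 on the corticothalamic side. Some of these differed at later ages too, n-R5s164 by -4.71 at P21 and -4.43 at P48 and snoU109 by -4.42 at P21. U1 and U5 are each listed more than once, so their values are uncertain.

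**Figure D5:**
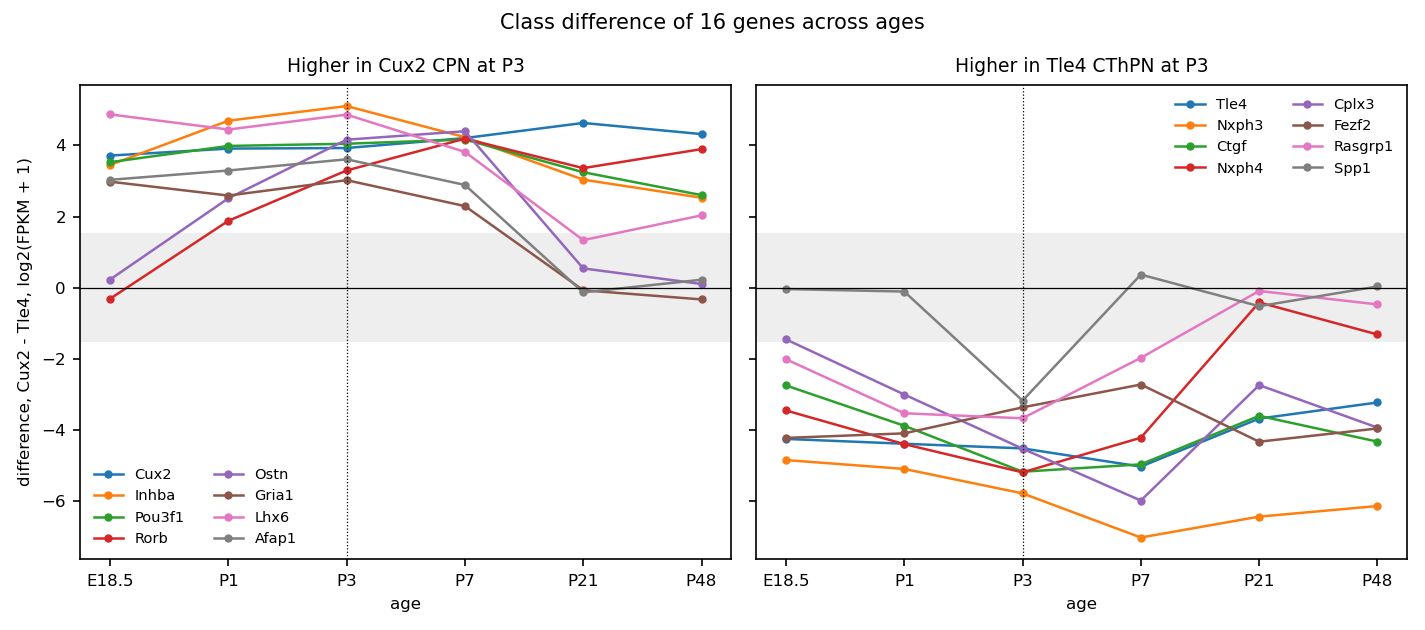
Differences between classes in log2(FPKM + 1), Cux2 CPN minus Tle4 CThPN, for 16 genes at 6 ages, with the limit of 1.5 shaded and P3 marked by a dotted line. Cux2 and Tle4 stayed outside the shaded band at all ages, Rorb and Ostn left it between E18.5 and P1, Afap1, Gria1 and Rasgrp1 were within it at P21, and Spp1 was outside it at P3 alone.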

How the data were processed

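RNA-seq was carried out by the authors on tdTomato-positive neurons sorted into pools, with SMART-Seq v4 amplification and Nextera XT libraries, 2 per class and age. Per the labels and the paper's methods, reads were trimmed with Trimmomatic, aligned to mm9 (NCBIM37) with TopHat2 and summarised with Cuffdiff. The deposited values are FPKM, 1 per gene and group over both libraries, for 9767 genes. The option that scaled libraries against each other is not given in the sources used here, and FPKM keep no read counts, so depth and counting error of a value are unknown beyond the minimum depth that the methods state. SMART-Seq reads carry no strand, so reads of overlapping genes and of near-identical copies (tubulins, calmodulins, ribosomal proteins, pseudogenes) may be shared, and such values are uncertain. The labels give 12 U per ml of papain, and the methods another concentration for P3.

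From these, log2(FPKM + 1) differences were computed with pandas 2.3.3 and numpy 2.4.6 under Python 3.11.15, and figures drawn with matplotlib 3.10.9. At P3, 1863 genes were under 10 FPKM in both classes, 32 were left out by symbol and 11 as Gm-number entries at 0 throughout a class. No test was run, since each group has 1 value, and a pseudocount of 1 understates the difference of low genes. Of the genes used, 41 share a symbol with another entry. Gene positions and lengths came from GENCODE vM1 on NCBIM37 and promoters from RefSeq on GRCm38.p6, each matched exactly to NCBIM37. Genes named in the text were Cux2 and Tle4, the 12 largest differences in each direction (without entries that share a symbol or are at 0 throughout a class), up to 6 per gene list, the defining markers, the 5 per direction most particular to P3 and the 8 most abundant per class, and any other named gene was chosen after its values were seen. Members and the 39 gene lists were chosen with earlier results of these data known. The values of some genes that this rule or the lists name are not reported here, although they are counted. Alternatives were pseudocounts of 0.1 and 5, median-ratio scaling, a minimum of 30 FPKM, no minimum, limits of 1 and 2, and leaving out short genes, with leaving out the interneuron and subplate lists, the list counts under each setting, the span medians at other ages and the choice of genes at P7 added after the data were seen.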

Additional observations from a re-analysis of the deposited data

Results flagged for a closer look

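The following genes were past the limit of 1.5 at P3 in one direction and past it in the opposite direction at another age. Entries that share a symbol with another entry, such as U1, were left out. With 1 value per group, the difference between ages was not tested for any of them. Values are differences in log2(FPKM + 1), Cux2 CPN minus Tle4 CThPN.

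Genes higher in Cux2 CPN at P3 and lower in it later were Nxph1 (3.85 at P3, -3.11 at P21 and -2.19 at P48), Arhgdib (2.48 at P3, -1.72 at P21 and -1.78 at P48), Gabrg3 (2.33 at P3, -2.15 at P21 and -1.59 at P48), Kcnip1 (2.02 at P3, -2.04 at P21), Mdga1 (2.52 at P3, -1.52 at P48), Dgkg (1.80 at P3, -1.55 at P21), Luzp2 (1.78 at P3, -1.76 at P21) and Gm4392 (2.02 at P3, -1.71 at P21). Nxph1 is a neurexophilin that is also on the interneuron list, Gabrg3 a GABA-A receptor subunit and Kcnip1 a partner of potassium channels.

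Genes higher in Tle4 CThPN at P3 and lower in it later were Whrn (-2.64 at P3, 2.68 at P21 and 2.21 at P48), the adrenergic receptor gene Adrb1 (-2.47 at P3, 1.68 at P48), Echdc2 (-2.49 at P3, 1.67 at P48), the cell cycle inhibitor gene Cdkn1a (-2.32 at P3, 2.12 at P21) and 6430548M08Rik (-1.74 at P3, 1.66 at P21).

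The earlier ages gave 4 such genes. The neuropeptide gene Adcyap1 was at -1.98 at E18.5 and 1.80 at P3. Tuba1c, a tubulin gene with near-identical copies, was at 2.43 at E18.5, 4.23 at P1 and -1.88 at P3, and reads may be divided among the copies. U11 was at -2.96 at E18.5 and 2.19 at P3. U4atac was at 4.29 at P3 and, at the other ages, at -3.26 (E18.5), -5.04 (P1), -4.98 (P7), -4.29 (P21) and -3.36 (P48).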

How the results depend on the processing

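The counts past the limit, 247 toward Cux2 CPN and 201 toward Tle4 CThPN, moved by over 1.5 times with the cutoffs. They were 154 and 133 with a pseudocount of 5, 112 and 101 with a minimum of 30 FPKM, 467 and 366 with a limit of 1, and 152 and 118 with a limit of 2. A pseudocount of 0.1 (271 and 217), median-ratio scaling (253 and 198), no minimum (312 and 253) and leaving out short genes (242 and 196), the interneuron list (235 and 201) or the subplate list (246 and 194) moved them less. Between 52.6% and 56.3% of the genes past the limit were higher in Cux2 CPN under each of these. The share also past the limit at P1 and P7 ranged from 40.9% to 59.8% and from 45.9% to 53.7%. Of 139 named genes, a pseudocount of 5 brought 18 within the limit, among them Bcl6, Cdh18, Fgf9, Gabrg3, Grik1, Grm2, Grm8, Junb and Olig1, and no named gene past the limit changed sign under the pseudocounts or the scaling. A minimum of 30 FPKM changed the sign of 5 of 34 list medians. They were those of semaphorins, of slits and robos, of sodium and calcium channels, of metabotropic receptors and of zinc finger and nuclear receptor genes.

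No paired analysis was possible because the table holds 1 value per group and no replicate numbers, and runs without 1 library could not be made for that reason. Library depth is unknown, so differences that rest on values near 0 FPKM have no counting error.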
